A study of Gallus gallus with 4 samples.

Results

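*WNT4*, *WNT6* and *WNT5A* encode secreted Wnt ligands, and *RSPO3* encodes an R-spondin, a secreted protein that is not itself a Wnt ligand. These 4 genes, of 29839 gene symbols in the count files, were picked by symbol for higher levels after NMDA and lower levels where microglia were missing, so those differences in Müller glia (MG) describe the choice and were given no test. They were read here in every retinal cell class of 4 single-cell RNA-seq (scRNA-seq) libraries of chick retina. All 4 genes had at least 1 UMI (unique molecular identifier, the tag that marks a captured RNA molecule) in the clodronate+NMDA, NMDA and saline libraries, and 3 of them in the clodronate+saline library, where *WNT6* had none.

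The libraries came from dissociated retinas of wild-type leghorn chicks. The clodronate+NMDA eyes were injected with clodronate liposomes, which deplete microglia, at P6 and with NMDA, which kills retinal neurons by excitotoxicity, at P10. NMDA eyes had saline at P6 and NMDA at P10, clodronate+saline eyes had clodronate liposomes at P6 and saline at P10, and saline eyes had saline at both times. Retinas of all groups were collected 24 h after the last injection, with 1 library per condition and no replicate, so intervals below are 95% intervals that cover counting error only, and no difference between conditions could be tested. The number of animals pooled in a library is not given in the sources used here.

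Wnt ligands leave the cell with the help of the carrier WLS and bind Frizzled receptors together with the co-receptors LRP5 or LRP6, which spares β-catenin from the destruction complex that includes GSK3β. R-spondins bind LGR4, LGR5 or LGR6 and draw the ubiquitin ligases ZNRF3 and RNF43 away from Frizzled receptors, so that these stay at the membrane. *WNT5A* is best known for pathways that do not use β-catenin, partly through ROR2, while *WNT4* and *WNT6* have been tied to both kinds of signalling. In the retinas of fish and birds, Wnt signalling has been linked to the formation of proliferating progenitors from MG. On the GRCg7b assembly of RefSeq, *WNT4* lies at chr21:6295870-6309892, *WNT6* at chr7:22026370-22035132, *WNT5A* at chr12:8082567-8096301 and *RSPO3* at chr3:58919028-58978268. *WNT5A* overlaps the lncRNA LOC121106677 and *RSPO3* overlaps the protein-coding LOC112532128, and whether counting used the strand is not given in the sources used here, so a share of their UMIs could belong to those neighbours.

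The clodronate+NMDA, NMDA, clodronate+saline and saline libraries held 8050, 10897, 11434 and 10905 barcodes, with 20614413 to 27033560 UMIs per library and median depths of 1314 to 1605 UMIs per barcode. Any pair of libraries shared 101 to 214 barcode sequences, which was 1.25 to 1.96% of the smaller library. Clustering without the 4 genes, of cells that held 200 to 2500 genes and no more than 5% of UMIs from mitochondria, gave 170, 219, 442 and 814 MG in the clodronate+NMDA, NMDA, clodronate+saline and saline libraries. The upper gene limit removed many of the deepest MG after NMDA, since 307, 653, 470 and 835 MG were found without it. MG of the retinas given NMDA were nearly all in a cluster led by *S100A6*, with *MDK*, *FABP9* and also *WNT4* among its leading genes, which held 169 and 219 of them in the clodronate+NMDA and NMDA libraries, against 4 and 0 in the clodronate+saline and saline libraries. The other MG formed a cluster led by *GLUL*. Barcodes with at least 2 of the complement genes *C1QA*, *C1QB* and *C1QC*, which mark microglia, numbered 0 in the clodronate+NMDA library, 28 in the NMDA library, 0 in the clodronate+saline library and 23 in the saline library. The 28 in the NMDA library held 58458 UMIs, of which 0 were *WNT4*, 1 was *WNT6*, 1 was *WNT5A* and 0 were *RSPO3*.

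Over all barcodes, with no clustering involved, *WNT4* had 40 UMIs in the clodronate+NMDA library and 5214 in the NMDA library, against 23 in the clodronate+saline library and 12 in the saline library. As counts for every 1000000 UMIs of the library (CPM) these were 1.66, 193, 0.915 and 0.582. The NMDA library thus stood apart from all other libraries, with a log2 ratio of 8.37 (7.57 to 9.33) for NMDA over saline and of −6.86 (−7.34 to −6.41) for clodronate+NMDA over NMDA. *WNT6* was at 37 UMIs in the clodronate+NMDA library and 3100 in the NMDA library, against 0 in the clodronate+saline library and 1 in the saline library. *RSPO3* was at 16 and 548 UMIs in the clodronate+NMDA and NMDA libraries, against 11 and 8 in the clodronate+saline and saline libraries. Its log2 ratios were 5.71 (4.72 to 6.93) for NMDA over saline and −4.93 (−5.75 to −4.22) for clodronate+NMDA over NMDA. In sums over a whole library, fewer cells of a type and less RNA per cell cannot be told apart.

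*WNT5A* had another distribution. It was at 1048 UMIs in the clodronate+NMDA library and 713 in the NMDA library, against 1083 in the clodronate+saline library and 495 in the saline library, or 43.6, 26.4, 43.1 and 24.01 CPM. Both libraries from eyes given clodronate were thus higher than both libraries from eyes that were not. The log2 ratio was 0.73 (0.59 to 0.86) for clodronate+NMDA over NMDA and 0.84 (0.69 to 1) for clodronate+saline over saline, but 0.14 (−0.03 to 0.30) for NMDA over saline.

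**Figure D1:**
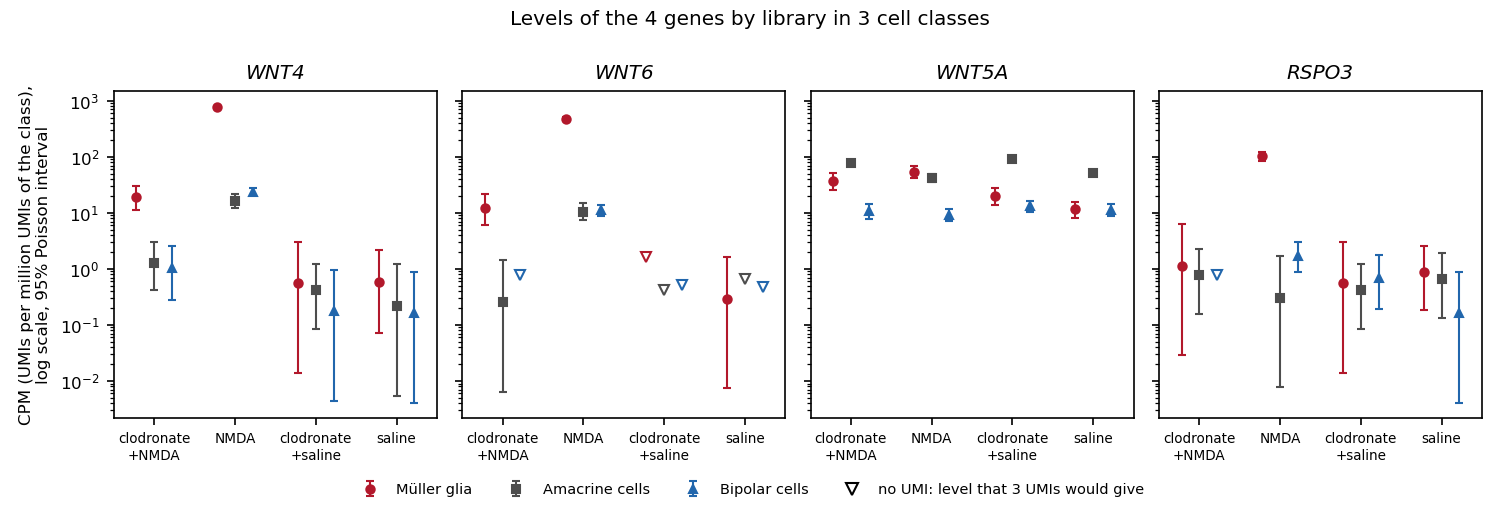
CPM of each gene (log axis) in Müller glia, amacrine cells and bipolar cells of the clodronate+NMDA, NMDA, clodronate+saline and saline libraries, 1 library each. Bars are exact Poisson 95% intervals, and open triangles mark classes with no UMI at the level that 3 UMIs would give. *WNT4* in MG stands at 760.2 CPM in the NMDA library and 19.1 CPM in the clodronate+NMDA library, while *WNT5A* in MG lies between 11.5 and 53.3 CPM in all 4 libraries.

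In MG, *WNT4* summed to 17 UMIs in clodronate+NMDA retinas and 970 in NMDA retinas, against 1 in clodronate+saline retinas and 2 in saline retinas. In CPM, here of the UMIs of the class, these were 19.1 (11.1 to 30.6), 760.2 (713 to 810), 0.551 (0.0139 to 3.07) and 0.591 (0.0716 to 2.13). With 2 UMIs or fewer, the level in MG of both retinas without NMDA was under what an observed 0 allows, 1.65 CPM in clodronate+saline and 0.886 CPM in saline retinas. The log2 ratio of CPM was 10.33 (8.47 to 13.38) for NMDA over saline and −5.31 (−6.10 to −4.63) for clodronate+NMDA over NMDA. MG of clodronate+NMDA retinas, however, had more *WNT4* than those of clodronate+saline retinas, at a log2 ratio of 5.12 (2.45 to 10.50), a ratio that rests on 17 UMIs against 1.

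*WNT6* summed to 11 UMIs in MG of clodronate+NMDA retinas and 604 in MG of NMDA retinas, against 0 in clodronate+saline retinas and 1 in saline retinas. The levels were 12.4 CPM (6.18 to 22.2), 473 CPM (436 to 513), 0 CPM, which allows up to 1.65 CPM, and 0.295 CPM (0.00748 to 1.65). The log2 ratio was 10.65 (8.16 to 15.95) for NMDA over saline and −5.26 (−6.27 to −4.41) for clodronate+NMDA over NMDA, close to those of *WNT4* in both cases. *RSPO3* had 1 UMI in MG of clodronate+NMDA retinas and 131 in MG of NMDA retinas, against 1 in clodronate+saline and 3 in saline retinas. The corresponding levels were 1.13, 103, 0.551 and 0.886 CPM, and the log2 ratios were 6.86 (5.28 to 9.15) for NMDA over saline and −6.51 (−11.83 to −4.01) for clodronate+NMDA over NMDA. Unlike *WNT4* and *WNT6*, *RSPO3* in MG of clodronate+NMDA retinas was at the level that 1 UMI gives and could not be told from that of the libraries without NMDA.

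*WNT5A* had UMIs in MG of every library. It summed to 33 UMIs in clodronate+NMDA retinas and 68 in NMDA retinas, against 36 in clodronate+saline and 39 in saline retinas, that is 37.1 (25.6 to 52.2), 53.3 (41.4 to 67.6), 19.8 (13.9 to 27.4) and 11.5 (8.19 to 15.8) CPM. The log2 ratio was 2.21 (1.62 to 2.82) for NMDA over saline, and for clodronate+NMDA over NMDA it was −0.52 (−1.17 to 0.10), an interval that includes 0. Without the upper gene limit *WNT5A* was at 85 and 264 UMIs in the clodronate+NMDA and NMDA MG, against 38 and 42 in the clodronate+saline and saline MG. In CPM these were 39.3 and 49.6, against 18.9 and 11.9. The log2 ratio for clodronate+NMDA over NMDA was then −0.34 (−0.71 to 0.02), which again includes 0. A lower level after NMDA where microglia were missing was a reason for which the 4 genes were grouped. For *WNT4*, *WNT6* and *RSPO3* that difference describes the choice, while for *WNT5A* in MG it was within counting error. *WNT5A* also had a log2 ratio of 0.91 (0.18 to 1.63) for clodronate+NMDA over clodronate+saline and of 0.78 (0.09 to 1.47) for clodronate+saline over saline, where no NMDA was given. Without the upper gene limit these were 1.06 (0.49 to 1.65) and 0.67 (−0.004 to 1.34), the latter with an interval that includes 0. These comparisons share libraries and are not independent of each other. Without NMDA, *WNT5A* in MG was near its level in some neurons. Bipolar cells were at 13.3 and 11.2 CPM and rods at 22.2 and 9.66 CPM in the clodronate+saline and saline libraries, while amacrine cells were higher. Whether *WNT5A* in MG without NMDA is RNA from outside these cells was not tested.

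The 2 MG clusters differed between conditions in depth and in other genes. The median depth of MG was 5295, 6050, 4150 and 4128.5 UMIs in the clodronate+NMDA, NMDA, clodronate+saline and saline libraries. The summed level of the MG markers was 27652 and 25083 CPM in the clodronate+NMDA and NMDA MG, against 32637 and 32800 CPM in the clodronate+saline and saline MG, and that of hemoglobin genes was 0 and 172 CPM, against 1.10 and 4.14 CPM. *GLUL*, the glutamine synthetase that marks MG, was at 961 and 669 CPM in the clodronate+NMDA and NMDA MG, against 12719 and 16125 CPM in the clodronate+saline and saline MG. Of 8 microglial markers, *SLC35G2* at 33.7 to 63.5 CPM made up most of the summed level of 38.4 to 66.2 CPM in MG of the 4 libraries, and *C1QA*, *C1QB*, *C1QC*, *SPI1* and *PTPRC* were at 0.886 CPM or less. *CCL4* was at 21.4 and 0.784 CPM in the clodronate+NMDA and NMDA MG, against 5.51 and 0.591 CPM in the clodronate+saline and saline MG, and *CSF1R* at 0 and 3.13 CPM, against 0 and 0.591 CPM. The part of depth in the levels of the 4 genes was not tested beyond the thinning described next. For hemoglobin RNA, sums without hemoglobin barcodes had *WNT4* at 193 CPM over the NMDA library. With hemoglobin, mitochondrial and ribosomal genes left out of the MG totals, all 14 MG ratios stayed within their counting intervals. The part of hemoglobin RNA was not tested beyond this.

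The share of MG with at least 1 UMI was 2.94, 64.8, 0.226 and 0.246% for *WNT4* in the clodronate+NMDA, NMDA, clodronate+saline and saline libraries. For *WNT6* it was 5.29, 73.1, 0 and 0.123%, where 0 of 442 cells has an upper bound of 0.831%. For *RSPO3* it was 0.588, 21.5, 0.226 and 0.246%. At full depth in this clustering, *WNT4* and *WNT6* were thus found in most MG of NMDA retinas and *RSPO3* in a minority. For *WNT5A* the share was 17.1, 23.3, 6.33 and 4.67%. In bipolar cells of the NMDA library, neurons with a median of 1412 UMIs, the shares were 3.28% for *WNT4*, 1.58% for *WNT6* and 0.249% for *RSPO3*. When each MG was thinned to 2000 UMIs, which left out 1, 1, 6 and 6 shallower cells, the shares in the clodronate+NMDA and NMDA libraries were 2.96 and 53.2% for *WNT4*, 2.37 and 56.9% for *WNT6*, 8.28 and 11.9% for *WNT5A* and 0 and 15.1% for *RSPO3*. In the clodronate+saline and saline libraries the thinned shares of *WNT4*, *WNT6* and *RSPO3* were 0.248% or less, and those of *WNT5A* were 2.75 and 2.35%. Thinned to 1000 UMIs, MG of the NMDA library held *WNT4* in 37.9% and *WNT6* in 35.6% of cells, no longer in most. Whether most MG held these 2 genes thus depended on depth, and also on which cells were taken as MG, as given below.

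The number of UMIs per cell showed how the signal was spread over MG. Without the upper gene limit, *WNT4* in the NMDA library had a median of 7 UMIs in the MG that held any, with 347 of 653 MG at 3 UMIs or more, 173 at 10 or more and a highest value of 49. *WNT6* had a median of 4 UMIs where present, with 357 MG at 3 or more, 51 at 10 or more and a highest value of 24. *RSPO3* was more concentrated: the tenth of MG with the most UMIs of it held 73.5% of its UMIs, against 40.6% for *WNT4* and 30.9% for *WNT6*. *RSPO3* was present in 156 of 653 MG, with a highest value of 16 UMIs. *WNT5A* had a median of 1 UMI where present in all 4 libraries and at most 6 in a single MG.

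**Figure D2:**
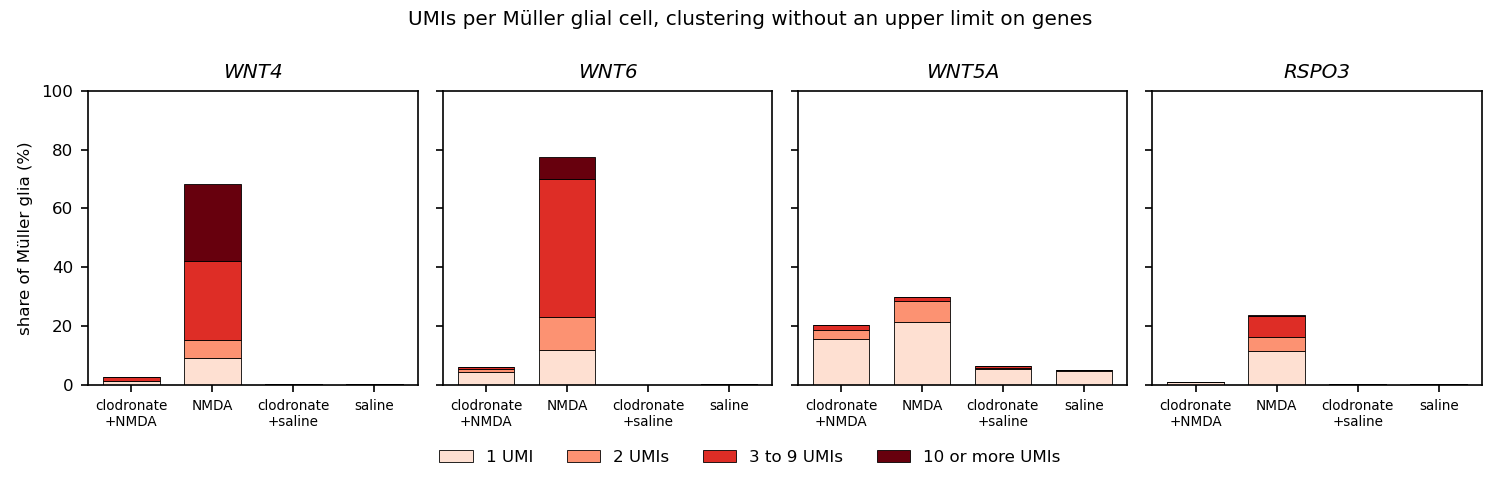
Share of Müller glia (percent, without the upper gene limit) that held 1, 2, 3 to 9, and 10 or more UMIs of each gene, stacked for the clodronate+NMDA, NMDA, clodronate+saline and saline libraries. In the NMDA library 68.5% of MG held *WNT4* and 77.6% held *WNT6*, and 173 and 51 of 653 MG held 10 or more UMIs of them.

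In MG of NMDA retinas the same cells often held several of the genes. Of 219 MG, 202 (92.2%) had at least 1 of the 4 genes, 141 had at least 2 of them and 51 at least 3. *WNT4* and *WNT6* were found together in 104 MG. Yet *WNT6* was present in 73.2% of MG with *WNT4* and in 72.7% of MG without it, so among these 219 MG detection of 1 ligand carried almost no information on the other. Among the 653 MG without the upper gene limit, *WNT6* was present in 79.9% of MG with *WNT4* and in 72.8% of those without. Of the 219 MG, *RSPO3* was present in 23.9% of those with *WNT4* and 16.9% of those without, and of the 653 MG in 27.1 and 17.0%.

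MG of clodronate+NMDA retinas had the genes in few cells. *WNT4* or *WNT6* was found in 14 of 170 MG, and in 0 of these were both present. With so few cells of either gene, this 0 does not show whether the genes occur apart from each other. The 17 UMIs of *WNT4* came from 5 cells, 3 of which held at least 3 UMIs and 1 of which held 7, while the 11 UMIs of *WNT6* came from 9 cells with at most 2 each. None of the 14 barcodes was shared with the NMDA library, and 0 of them were in the top 5% of doublet scores. These counts of 0 say little. Only 1.40% of the barcodes of the smaller library were shared between these libraries, and the doublet scores came from a run that has not worked. The median depth of the 14 cells was 5198 UMIs against 5295 in the other MG. The median was 3 UMIs of *WNT4* in the 5 cells, against 5 in the 142 MG of NMDA retinas that held any. For *WNT6* it was 1 UMI in the 9 cells, against 3 in the 160 MG of NMDA retinas that held any. Without the upper gene limit the genes were found in 26 of 307 MG, 8 with *WNT4* and 18 with *WNT6*. Both were in 0 of them, again from few cells.

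MG made up 2.58% of the cells within the limits of the NMDA library and held 64.1% of their *WNT4*, 57.7% of their *WNT6* and 60.6% of their *RSPO3* UMIs. The upper gene limit left out most of the MG that held these genes. Without it, MG of the NMDA library held 4438 UMIs of *WNT4*, 2426 of *WNT6* and 407 of *RSPO3*. All barcodes of that library held 5214, 3100 and 548. In neurons of this library the 3 genes were at a small part of the MG level. *WNT4* was at 16.3 CPM in amacrine cells, or 2.14% of its level in MG, with an upper bound of 2.82%, and at 23.98 CPM in bipolar cells, or 3.15% (2.66 to 3.72%). In horizontal cells, cones and rods it was at 2.30, 1.94 and 4.02% of the MG level. *WNT6* was at 2.18 to 2.95% of its MG level in the same 5 classes, and *RSPO3* at 0 in cones, which allows up to 5.38%, and 0.294 to 1.75% in the others. *MDK*, which encodes the growth factor midkine and led the MG of NMDA retinas, was at 2.62 to 4.53% of its own MG level in these neurons, and *FABP9*, also a leading gene of those MG, was at 4.89 to 7.58%. *WNT4*, *WNT6* and *RSPO3* in neurons were thus below both of these glial genes in each of the 5 classes by point value, though some intervals overlapped, such as 2.33 to 6.46% for *WNT4* and 3.28 to 6.10% for *MDK* in rods. Levels in this range are not read as expression in neurons, and whether they are RNA from outside these cells was not tested, since empty droplets were not used here. *WNT5A*, by contrast, was at 78.2% (58.1 to 106%) of its MG level in amacrine cells, 17.2% in bipolar cells, 20.2% in rods, 9.82% in horizontal cells and 8.31% in cones.

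**Figure D3:**
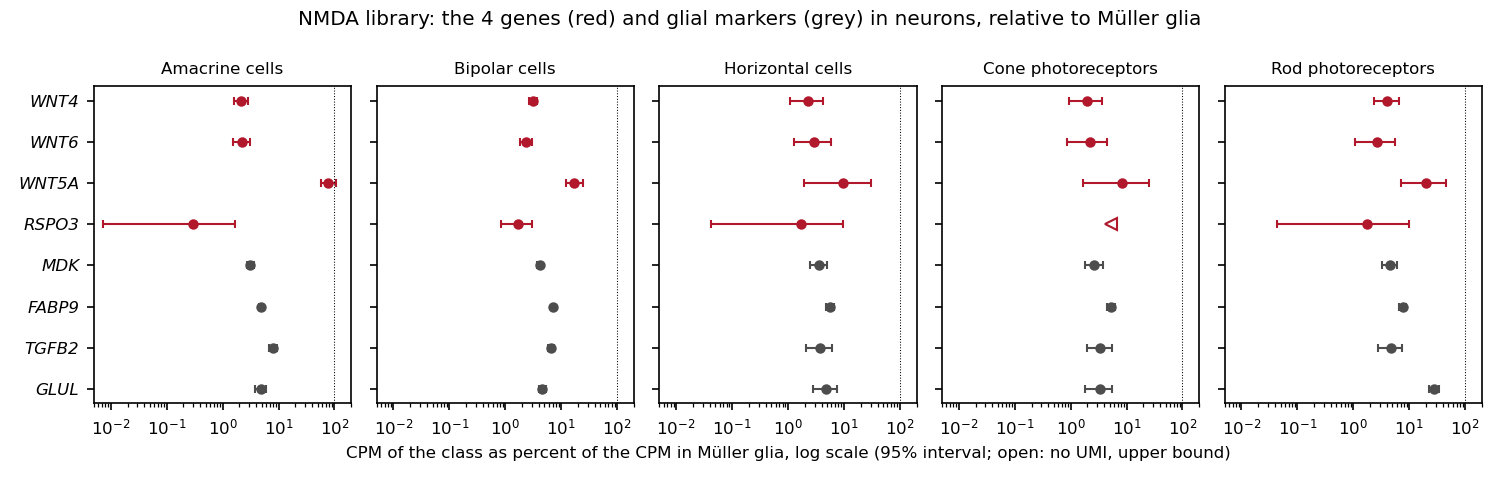
Level of each gene in neuron classes as a percent of its level in Müller glia of the NMDA library (log axis), with 95% intervals, beside the same for the glial genes *MDK*, *FABP9*, *TGFB2* and *GLUL*. The dotted line is the MG level, and the open triangle is an upper bound where there was no UMI. *WNT4* is at 2.14% in amacrine and 3.15% in bipolar cells, while *WNT5A* is at 78.2% in amacrine cells.

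Within the gene limits, amacrine cells, the inhibitory interneurons of the inner retina, held most of the *WNT5A* of 3 libraries. They held 65.4% of the UMIs in the clodronate+NMDA library, 42.5% in the NMDA library, 77.5% in the clodronate+saline library and 57.2% in the saline library, while they were 24.2, 16.9, 30.1 and 21.2% of the cells. Without the upper gene limit, retinal ganglion cells, described below, held more in the clodronate+NMDA library, at 520 UMIs against 328 in amacrine cells. In the NMDA library amacrine cells then held 156 UMIs, retinal ganglion cells 148 and MG 264. Amacrine cells still held more than retinal ganglion cells in the clodronate+saline (756 against 136) and saline (264 against 79) libraries. Within the limits, *WNT5A* summed to 301 UMIs in amacrine cells of clodronate+NMDA retinas and 138 in those of NMDA retinas, against 652 in clodronate+saline and 235 in saline retinas. The levels were 76.5 (68.1 to 85.6), 41.7 (35.0 to 49.2), 90.4 (83.6 to 97.6) and 51.0 (44.7 to 57.9) CPM. As in the whole libraries, both conditions with clodronate were higher than both without. The log2 ratio was 0.88 (0.58 to 1.18) for clodronate+NMDA over NMDA and 0.83 (0.61 to 1.05) for clodronate+saline over saline. It was −0.29 (−0.60 to 0.02) for NMDA over saline and −0.24 (−0.44 to −0.04) for clodronate+NMDA over clodronate+saline, so the amacrine level was not higher after NMDA, while that in MG was. Without the upper gene limit these were −0.64 (−0.94 to −0.35) and −0.48 (−0.67 to −0.29), both lower beyond counting error. In that clustering most amacrine cells with GABA-synthesis genes were in different clusters by condition, with 847 and 661 cells in a cluster led by *PRLL* in the clodronate+NMDA and NMDA libraries, against 8 and 11 in the clodronate+saline and saline libraries. A cluster led by *RASL10A* held 211 and 70 cells, against 1503 and 1008, so these ratios compare different clusters.

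The share of amacrine cells with a UMI of *WNT5A* followed the same order, at 11.1, 6.77, 14.9 and 8.24% in the clodronate+NMDA, NMDA, clodronate+saline and saline libraries. The median depth of these cells was 2775, 2066, 2566.5 and 2110 UMIs, which was also higher in both libraries with clodronate. Thinning to 2000 UMIs per cell left out 435 of 1400, 689 of 1432, 967 of 2804 and 951 of 2051 shallower amacrine cells. The shares were then 9.64, 6.86, 13.5 and 7.82%, by point value in the same order as before. The interval for clodronate+NMDA (7.85 to 11.7%) overlapped those for NMDA (5.15 to 8.93%) and saline (6.30 to 9.57%). The interval for clodronate+saline (11.97 to 15.1%) lay above all of these. Among groups of amacrine cells, the cluster led by *PRLL*, which has the GABA-synthesis genes *GAD1* and *GAD2*, was at 76.4 and 34.2 CPM in the clodronate+NMDA and NMDA libraries, against 92.5 and 45.2 CPM in the clodronate+saline and saline libraries. The cluster led by *LAMP5*, which has the glycine transporter gene *SLC6A9*, was at 76.2 and 53.7 CPM, against 78.0 and 57.8 CPM in the same order. The small cluster led by *VIP*, a neuropeptide gene, had 4 and 1 UMIs in the clodronate+NMDA and NMDA libraries, too few for a comparison, and 38 and 20 UMIs (168 and 91.7 CPM) in the clodronate+saline and saline libraries. For clodronate+saline over saline the log2 ratio was 1.03 (0.75 to 1.32) in the *PRLL* cluster, 0.43 (0.03 to 0.84) in the *LAMP5* cluster and 0.88 (0.06 to 1.74) in the *VIP* cluster. For clodronate+NMDA over NMDA it was 1.16 (0.77 to 1.57) in the *PRLL* cluster and 0.50 (−0.04 to 1.04) in the *LAMP5* cluster, where the interval includes 0. Whether these clusters differ in either ratio was not tested.

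**Figure D4:**
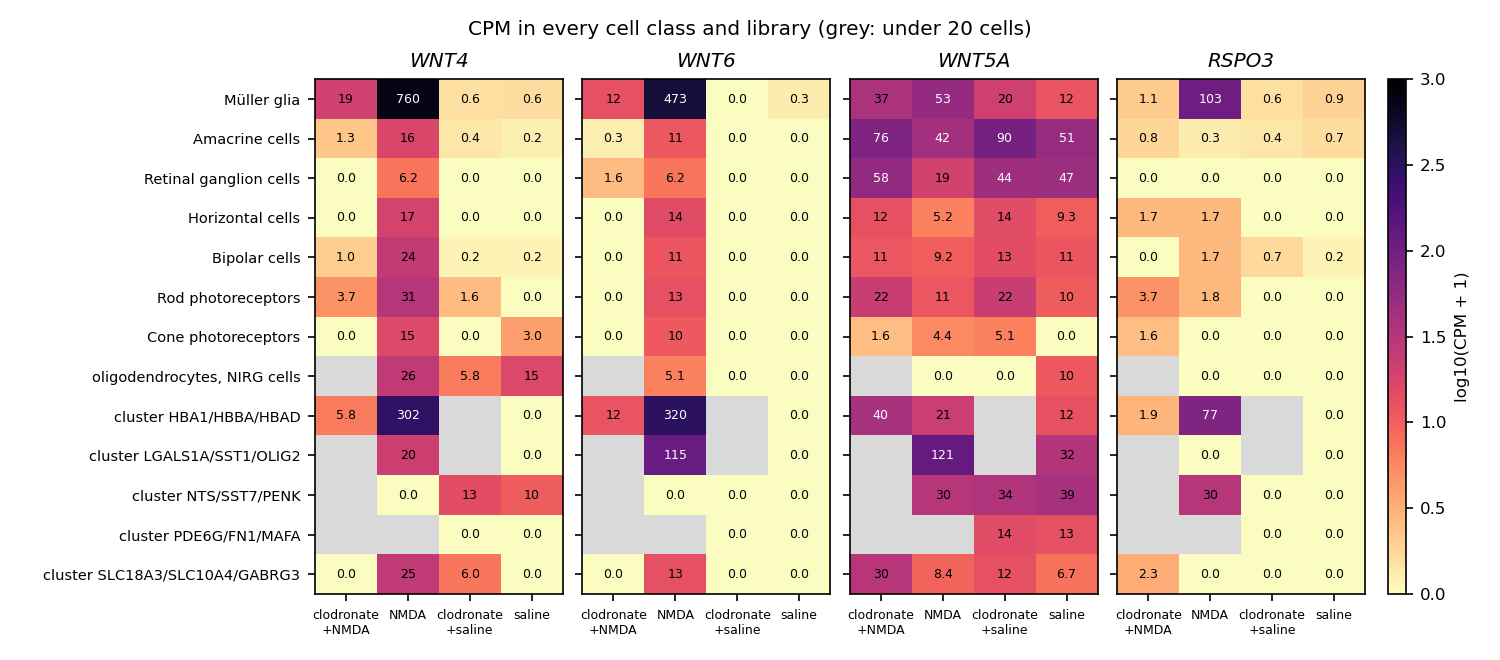
Heat map of the level of each gene in every cell class and unnamed cluster (rows) of the clodronate+NMDA, NMDA, clodronate+saline and saline libraries (columns). Cells are coloured by log10(CPM + 1) and give the CPM, and those with fewer than 20 cells are grey. *WNT5A* in amacrine cells is at 76.5 and 90.4 CPM in the clodronate+NMDA and clodronate+saline libraries, against 41.7 and 51.0 CPM in the NMDA and saline libraries.

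Retinal ganglion cells, the output neurons of the retina, also held *WNT5A*. It was at 36 UMIs in 147 of these cells of clodronate+NMDA retinas and 3 UMIs in 56 cells of NMDA retinas, against 19 UMIs in 97 cells of clodronate+saline and 32 UMIs in 149 cells of saline retinas. The levels were 57.6 (40.3 to 79.7), 18.7 (3.85 to 54.6), 44.0 (26.5 to 68.8) and 46.8 (32.0 to 66.0) CPM, whose intervals all overlap. Without the upper gene limit, which removes many of these large cells, the class had 520 UMIs of *WNT5A* in 921 cells of the clodronate+NMDA library and 148 in 439 cells of the NMDA library, against 136 in 398 cells of the clodronate+saline and 79 in 338 cells of the saline library. The log2 ratio was then 0.89 (0.63 to 1.17) for clodronate+NMDA over NMDA and 0.28 (−0.13 to 0.70) for clodronate+saline over saline. Part of this class was a cluster with *MUSTN1* and *ANKRD1* among its leading genes. It held 146 and 17 cells in the clodronate+NMDA and NMDA libraries, against 35 and 1 in the clodronate+saline and saline libraries. These ratios thus compare different mixtures of clusters. Bipolar cells, the interneurons that carry signals from photoreceptors inward, were at 10.7 and 9.19 CPM in the clodronate+NMDA and NMDA libraries, against 13.3 and 11.2 CPM in the clodronate+saline and saline libraries. Horizontal cells were at 12.1 and 5.24 CPM, against 13.6 and 9.30 CPM. In the saline library the order of *WNT5A* levels over the named classes was amacrine cells, retinal ganglion cells, MG, bipolar cells, the class of oligodendrocytes and related glia, rods, horizontal cells and cones, the last of which had 0 UMIs. The intervals of amacrine and retinal ganglion cells overlapped each other, as did those of all classes from MG down, but retinal ganglion cells and MG did not overlap.

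Clusters left unnamed in the main clustering also held the genes. A cluster led by the hemoglobin genes *HBA1*, *HBBA* and *HBAD* had 221 and 530 cells in the clodronate+NMDA and NMDA libraries and 14 and 84 in the clodronate+saline and saline libraries, with a median of 1057 UMIs in the NMDA library. In the NMDA library *MDK*, *FABP9*, *TGFB2* and *GLUL* were at 35.8 to 73.6% of their MG level in this cluster and *RLBP1*, another MG marker, at 313%. There it held 269 UMIs of *WNT4* (302 CPM), 285 of *WNT6* (320 CPM) and 69 of *RSPO3* (77.5 CPM). In the clodronate+NMDA library it held 3, 6 and 1 UMIs of the same genes. The genes were chosen by this difference in the same libraries, so it is no separate support. Without the upper gene limit, hemoglobin genes led a named erythrocyte cluster, with 6 and 106 cells in the clodronate+NMDA and NMDA libraries. An unnamed cluster led by *IGLL1*, *AVD* and *GBE*, with 7 MG markers raised, then held 228 and 406 cells of these libraries. Which cells the clusterings shared was not tested. A cluster of 43 cells in the NMDA library, led by *LGALS1A*, *SST1* and *OLIG2*, had 17 UMIs of *WNT6* in 9 cells and 18 of *WNT5A* in 13 cells, but 3 of *WNT4* and 0 of *RSPO3*. Relative to MG of that library *WNT6* was at 24.2% (14.0 to 39.1%) and *WNT5A* at 228% (128 to 388%), while *WNT4* was at 2.66%. Of the glial genes, *MDK* was at 5.41%, *GLUL* at 4.03%, *FABP9* at 38.2% and *TGFB2* at 369% of the MG level, so *WNT6* lay above the first and second of these and below the others. Without the upper gene limit, a cluster led by the same genes was named as oligodendrocytes and related glia.

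A few UMIs of *WNT4* were found outside MG without NMDA. In a cluster led by *NTS*, *SST7* and *PENK*, of which *NTS* and *PENK* encode neuropeptide precursors, 9 UMIs in 8 of 351 cells of the clodronate+saline library gave 13.2 CPM (6.05 to 25.1) and 4 UMIs in 198 cells of the saline library gave 9.63 CPM (2.62 to 24.6). MG of the same libraries were at 0.551 and 0.591 CPM. Without the upper gene limit a cluster led by the same genes had 8 and 2 UMIs (13.5 and 5.77 CPM) in these libraries. Cells with markers of oligodendrocytes and of non-astrocytic inner retinal glia (NIRG) had 2 UMIs (5.76 CPM) in the clodronate+saline and 3 UMIs (15.4 CPM) in the saline library. The counts of 2 and 3 UMIs in these glia could not be told from background at this depth. For the *NTS* cluster of the clodronate+saline library, the interval of 6.05 to 25.1 CPM lay above the level over all barcodes. That level was 0.915 CPM (0.58 to 1.37). In the saline library the level of this cluster rests on 4 UMIs. Whether the *WNT4* RNA came from these cells themselves was not tested.

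The other genes of the pathway were taken from a list of 78 ligands, receptors, inhibitors, carriers and targets, of which 68 were found in the files. A gene was read in MG where it had at least 20 UMIs in the libraries compared, and was counted where its CPM differed by more than 4-fold. For NMDA over saline, a comparison that chose the 4 genes, all 4 were past 4-fold higher, where 4.53% of 10234 genes were past 4-fold higher and 7.55% past 4-fold lower. For clodronate+NMDA over NMDA, *WNT4*, *WNT6* and *RSPO3* were past 4-fold lower, where 1.73% of 8209 genes were lower and 1.16% higher. Nothing is read from these shares, since the genes were picked on those comparisons. For clodronate+saline over saline *WNT5A* alone of the 4 had enough UMIs and was within 4-fold, where 0.994% of 10463 genes were higher and 0.745% lower. For clodronate+NMDA over clodronate+saline *WNT5A* was again the only member with enough UMIs and was within 4-fold, where 1.85% of 9138 genes were higher and 4.03% lower.

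No other Wnt ligand was near this range. Of 18 further ligand genes, 16 were found and none reached 20 UMIs in any of the comparisons, with *WNT9A* at 7, 2, 2 and 2 UMIs in the clodronate+NMDA, NMDA, clodronate+saline and saline MG. *RSPO4*, another R-spondin, was at 10.1 and 31.3 CPM in the clodronate+NMDA and NMDA MG, against 19.8 and 12.4 CPM in the clodronate+saline and saline MG. Its log2 ratio was 1.34 for NMDA over saline and −1.63 for clodronate+NMDA over NMDA, both within 4-fold. *WLS*, the carrier that Wnt ligands need for secretion, was past 4-fold higher for NMDA over saline, at a log2 ratio of 2.35 (1.28 to 3.49) from 23 UMIs against 12. For clodronate+NMDA over NMDA it was just past 4-fold lower, with 4 UMIs against 23 and an interval of −3.99 to −0.45.

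Of 31 pathway genes besides the 4 that could be read for NMDA over saline, 3 were past 4-fold higher and 4 lower, with a median log2 ratio of 0.06 against −0.06 over all genes. The higher ones were *WLS*, *FRZB*, a secreted Frizzled-related inhibitor (3.14), and *MYC*, a target of β-catenin signalling, with 70 UMIs against 1 and a log2 ratio of 7.54 (5.01 to 12.86). The lower ones were the Frizzled receptor gene *FZD5* (−3.14), the R-spondin receptor gene *LGR4* (−2.39), *ROR2*, a receptor for WNT5A (−2.50), and *WIF1*, a secreted inhibitor that binds Wnt ligands (−3.90). Of 9 Frizzled receptors and co-receptors read, 0 were past 4-fold higher and 2 were lower. *FZD7* was at 12.4 and 47.0 CPM in the clodronate+NMDA and NMDA MG, against 13.2 and 19.5 CPM in the clodronate+saline and saline MG. Its log2 ratio was 1.27 (0.74 to 1.80) for NMDA over saline and −1.93 (−3.00 to −0.98) for clodronate+NMDA over NMDA. Both were within 4-fold, with intervals that exclude 0. *FZD5* was at 163 and 36.1 CPM in the clodronate+NMDA and NMDA MG, against 359 and 317 CPM in the clodronate+saline and saline MG, and *LGR4* at 85.6 and 30.6 CPM, against 179 and 160 CPM. *LGR5*, another R-spondin receptor gene, was at 129 and 201 CPM, against 507 and 243 CPM. The remaining receptor genes read, *FZD1*, *FZD3*, *FZD9*, *LRP5*, *LRP6* and *PTK7*, had log2 ratios of −1.12 to 1.27 for NMDA over saline. *AXIN2*, a feedback target of β-catenin signalling, was at 2.25 and 2.35 CPM, against 11.6 and 8.57 CPM. The listed targets *CCND1*, *NKD1*, *LGR5* and *TCF7* had log2 ratios of −1.42, −0.85, −0.28 and −0.40 for NMDA over saline. For clodronate+NMDA over NMDA, *MYC* was at −0.05 (−0.62 to 0.50).

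Of 28 such genes for clodronate+NMDA over NMDA, *FZD5* was past 4-fold higher, at a log2 ratio of 2.18, and *WLS* past 4-fold lower, and the median was 0.05 against 0.04 over all genes. For clodronate+saline over saline 0 of 28 were higher and 1, *WIF1*, was lower, with a median of −0.05 against 0.09 over all genes. *WIF1* was at 95 and 74 UMIs in the clodronate+NMDA and NMDA MG, against 10 and 2929 UMIs in the clodronate+saline and saline MG, a log2 ratio of −7.30 (−8.36 to −6.42) for clodronate+saline over saline. The saline library was thus far above the other 3 for this inhibitor. For clodronate+NMDA over clodronate+saline 3 of 28 were higher, *FRZB* (3.16), *MYC* (2.42) and *WIF1* (4.28), and 1, *AXIN2*, was lower with 2 UMIs against 21 (−2.36, from −5.50 to −0.33), with a median of −0.09 against −0.08 over all genes. The median of the list depended on the count minimum for NMDA over saline, at −0.50 against −0.05 over all genes with at least 100 UMIs and 0.29 against −0.01 with at least 1 UMI.

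**Figure D5:**
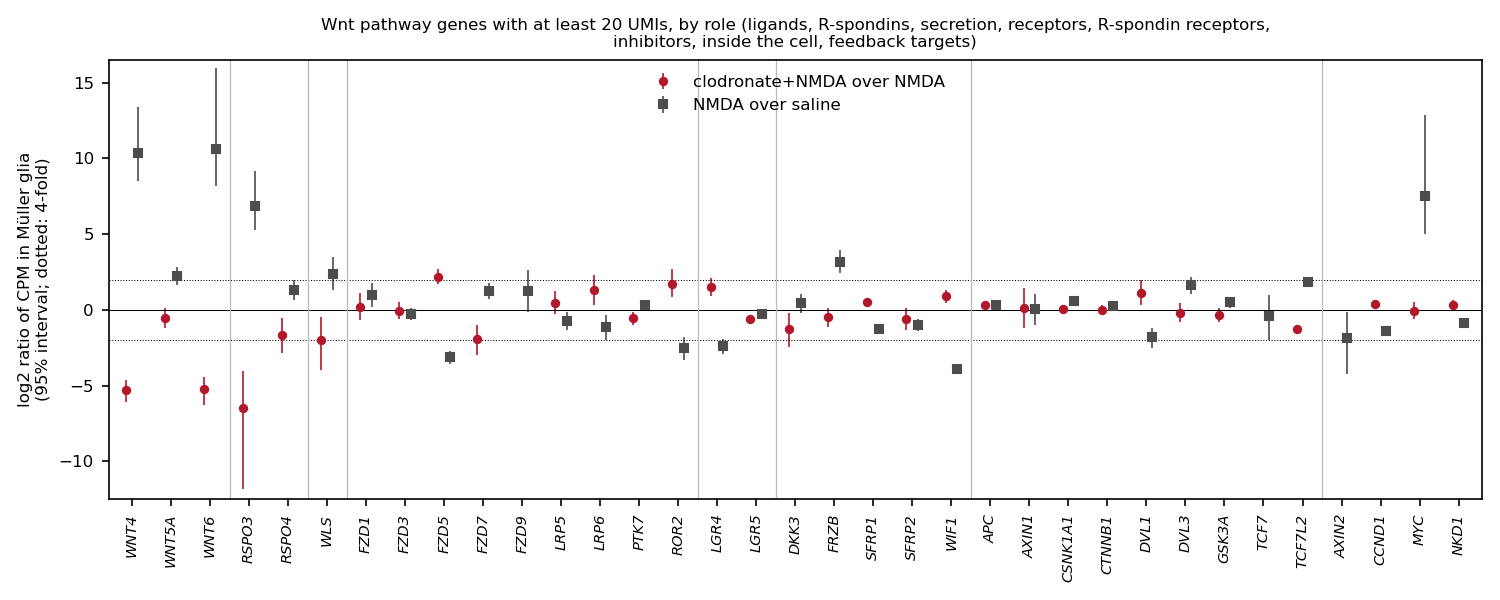
Log2 ratio of CPM in Müller glia for the pathway genes with at least 20 UMIs, grouped by role, with 95% counting intervals, for clodronate+NMDA over NMDA (circles) and NMDA over saline (squares). Dotted lines mark 4-fold. *WNT4*, *WNT6* and *RSPO3* lie at 10.33, 10.65 and 6.86 for NMDA over saline and at −5.31, −5.26 and −6.51 for clodronate+NMDA over NMDA.

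Likeness to other genes was measured as Pearson's r of log2(CPM + 10) over 40 pairs of a cell class and a library, among 14809 genes, as a description only, since the points share 4 libraries and the MG of the NMDA library stand far from the rest. Among the genes themselves r was 0.965 for *WNT4* and *WNT6*, 0.931 for *WNT6* and *RSPO3* and 0.882 for *WNT4* and *RSPO3*, but 0.130 to 0.197 for *WNT5A* with each of the others. The named gene most like *WNT4* was *FABP4*, a fatty acid binding protein gene (0.924), followed by *POSTN*, which encodes the matrix protein periostin (0.913). For *WNT6* it was *POSTN* (0.959), then *FABP4* (0.956), the immediate early gene *ARC* (0.953) and the crystallin gene *CRYGS* (0.950). *RSPO3* was like *CRYGS* (0.947) and *FABP4* (0.939). *FABP4* had 4 UMIs in MG of clodronate+NMDA retinas and 94 in those of NMDA retinas, against 0 in both clodronate+saline and saline retinas. For *WNT5A* the named genes were the tubulin gene *TUBB2B* (0.786), *NRSN1* (0.753), *SHISA5* (0.751) and *TTC9* (0.750), none of which was among the genes most like the other 3. These ranks depended on the pseudocount: at 1 CPM, 3 of the 5 genes were kept for *WNT4*, *WNT6* and *RSPO3* and 1 of 5, a gene ID without a symbol, for *WNT5A*, and r of *WNT4* with *RSPO3* was 0.682. The remaining places, most of them taken by gene IDs without a symbol, are not described here.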

How the data were processed

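The deposited files hold counts, whole numbers of UMIs per gene and barcode, made by the authors with Cell Ranger 7.0.1 on GRCg7b per the file headers and the submitters' processing notes. Members and lists were chosen with earlier results of these data known. Counts of the 4 libraries were scaled to 10000 UMIs per cell and log-transformed. Clusters came from 2000 variable genes without the Wnt list, 10 components, 20 neighbours and Leiden clustering at a resolution of 0.8. The tools were igraph 0.11.9, leidenalg 0.10.2 and Python 3.11.15. A class was named where at least 3 of its markers were raised by a log2 fold over 1 and no marker of another type was among the 10 leading genes. Clusters also stayed unnamed where too many markers of another type were raised, or at low depth with no own marker among the leading genes. These rules were set after the clusters were seen. Levels are CPM from raw UMIs, with exact Poisson intervals, shares have exact Clopper-Pearson intervals, and ratios have exact conditional binomial intervals. Named were the members, the pathway's ligands, R-spondins and receptors with at least 20 UMIs, pathway genes past 4-fold, and the 5 genes most like each member, of which 1 is not reported here. *AXIN2* was past 4-fold in 1 comparison, and *WNT9A*, *CCND1*, *NKD1* and *TCF7* were named after their values were seen. Scrublet (scanpy 1.11.5) called under 0.5% of cells as doublets and so has not worked, and no doublets were removed. Alternatives were no upper gene limit, a marker gate for MG, other clustering settings, thinning and doublet removal. Further ones were edgeR 4.0.16 and other scaling factors, and totals without hemoglobin, mitochondrial and ribosomal genes. The interval code was tested on simulated data. Sequences of the genes were not used here.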

Additional observations from a re-analysis of the deposited data

Results flagged for a closer look

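The log2 ratio of *WNT5A* for clodronate+NMDA over clodronate+saline was 0.91 (0.18 to 1.63) in MG and −0.24 (−0.44 to −0.04) in amacrine cells, so these 2 classes had opposite signs under the same contrast. Among amacrine cells it was −0.28 (−0.51 to −0.05) in the *PRLL* cluster and −0.03 (−0.50 to 0.41) in the *LAMP5* cluster. Without the upper gene limit it was 0.48 (0.21 to 0.76) in retinal ganglion cells. With 1 library per condition the differences between cell classes were not tested.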

How the results depend on the processing

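No paired analysis was possible because there is 1 library per condition. No value changed sign where it had been beyond counting error. Without the upper gene limit, the log2 ratio of *WNT4* in MG for clodronate+NMDA over NMDA was −6.36, the share of NMDA MG with *WNT5A* was 29.9%, and the log2 ratios of *WNT5A* in amacrine cells were −0.64 for NMDA over saline and −0.48 for clodronate+NMDA over clodronate+saline. The share of NMDA MG with a UMI moved with depth and with which cells were taken as MG. With a marker gate in place of clusters it was 39.2% for *WNT4*, 40.9% for *WNT6*, 14.2% for *WNT5A* and 11.8% for *RSPO3*. With the cluster led by *HBA1* added, an alternative chosen after seeing the data, it was 38.1, 43.7, 10.4 and 13.0% in the same order. Thinned to 2000 UMIs it was 53.2, 56.9, 11.9 and 15.1%, and thinned to 1000 UMIs 37.9, 35.6, 5.02 and 5.94%. Over cells within the limits in place of all barcodes, the NMDA library had 100.7 CPM of *WNT4*, 69.6 of *WNT6*, 21.6 of *WNT5A* and 14.4 of *RSPO3*. For NMDA over saline with at least 100 UMIs, 0 of 22 pathway genes besides the 4 were past 4-fold higher and 4 were lower. Over all 5622 genes at that minimum, 204 were higher and 389 lower. With at least 1 UMI, 8 of 50 pathway genes were higher and 10 lower, where 1687 of 16915 genes were higher and 3754 lower. Among the ratios in MG, 165 values under alternatives stayed within the counting interval and 1, given above, did not. Of the 165, 14 at a resolution of 0.4 and 14 with Scrublet doublets removed had the main numbers of MG, so they were no check. Some intervals were also wide, such as 8.16 to 15.95 for *WNT6* for NMDA over saline, so staying within them shows little. Under other pseudocounts or count minimums, 7 of 8 lists of the most alike genes and 12 of 16 pathway counts moved. With 1 library per condition, differences between animals, eyes or dissociations and those between conditions cannot be told apart, and a level of 1 to 3 UMIs could not be told from background at this depth.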
